A study of Drosophila melanogaster with 4 samples.

Results

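CBP-bound regions on the X chromosome of Drosophila melanogaster are described here, in gd7 and wild-type embryos. The members are all regions that the authors' lists place on X. They number 309 of 1939 regions in the gd7 list and 552 of 3013 in the wild-type list, or 861 of 4952 in both. The lists come from chromatin immunoprecipitation with a rabbit antibody against Drosophila CBP, followed by sequencing (ChIP-seq), in embryos of 2 to 4 h. The gd7 embryos came from mothers homozygous for the gd7 mutation and lack Dorsal in their nuclei, and the wild-type embryos were w1118. Each genotype is represented by 1 CBP library, pooled from several immunoprecipitations, and 1 input library, so without replicates no difference between gd7 and wild-type was tested. Both libraries come from whole embryos, so a region bound in fewer cells and a region bound less strongly in each cell cannot be told apart.

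CBP (Nejire in the fly) is a co-activator and histone acetyltransferase that sequence-specific activators recruit to enhancers and promoters. Dorsal, a Rel-family activator, enters ventral nuclei at high levels and lateral nuclei at lower levels, and thereby divides the early embryo into mesoderm, neuroectoderm and dorsal ectoderm. When it stays out of the nuclei, as in gd7 embryos, the whole embryo takes the fate of dorsal ectoderm, where Dpp signals. The X chromosome carries well-known genes of this network, among them short gastrulation (sog), whose product inhibits Dpp, and brinker (brk), a repressor of Dpp targets. Both are expressed in the neuroectoderm under Dorsal. No region below is assigned to a gene, because no annotation of the genome release used for the lists (release 5) was used here, and positions are those of that release.

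The value of a region is the log2 ratio of CBP over input, averaged over its highest consecutive points, so that a difference of 1 between the genotypes is a 2-fold difference in enrichment. The lists hold only the highest 5% of these ratios in each library, and the lowest value on X was 1.931 in gd7 and 1.902 in wild-type. A region missing from a list therefore had no value there, not a value of 0. The depth of each library is not held in the lists, and the intervals given below are 95% intervals that cover the counting of regions only.

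In gd7 embryos X held a smaller part of the CBP regions than in wild-type embryos. The 309 gd7 regions were 15.9% of their list (Wilson interval 14.4 to 17.6%), and the 552 wild-type regions were 18.3% of theirs (17.0 to 19.7%), with intervals that overlap. X thus had 0.560 gd7 regions for each wild-type region. On the 4 large autosome arms, 2L, 2R, 3L and 3R, this ratio lay between 0.637 and 0.725. The density of gd7 regions on X, 14.1 per Mb between the first and the last region, was below the range of 15.2 to 19.8 per Mb over the large arms. The wild-type density of 24.8 per Mb lay within the range of the large arms, 23.2 to 28.3 per Mb. The small chromosome 4 is not in these ranges. It held 8 gd7 and 28 wild-type regions, or 8.57 and 28.7 per Mb, so its gd7 density was below that of X. In the gd7 list the X regions together covered 186 kb, or 0.848% of their span, against 271 kb, or 1.22%, in the wild-type list. The lower share of X in the gd7 list also stood among stronger regions. Of the regions with a value of at least 2.5, X held 153 in gd7 (15.0%) and 240 in wild-type (18.6%), and of the 1939 strongest wild-type regions it held 363 (18.7%). Whether X differs from the other arms was not tested, since an arm is a single item. The lists do not give the sexes of the embryos, and the effect of 1 or 2 copies of X on the ratios was not tested.

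**Figure D1:**
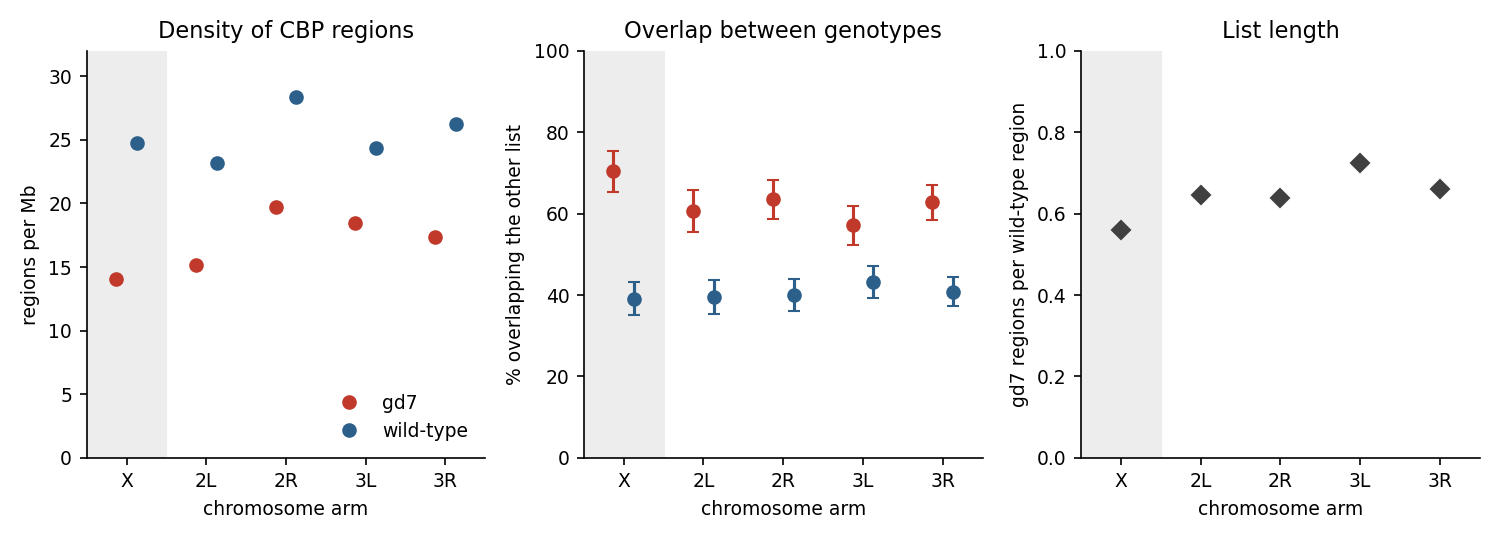
Density of CBP regions (left, regions per Mb), percentage of regions overlapping the other list by at least 1 bp (middle, bars are 95% Wilson intervals) and gd7 regions per wild-type region (right) for X and the 4 large autosome arms. X has the lowest gd7 density, 14.1 per Mb, the lowest ratio of list lengths, 0.560, and the highest share of gd7 regions that overlap a wild-type region, 70.6%. That share depends in part on the ratio of list lengths.

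The values of X regions covered a similar range in both genotypes, and which list had the higher median depended on the length of the lists. The median was 2.49 in gd7 (interval 2.43 to 2.58) and 2.42 in wild-type (2.38 to 2.47). The middle part of the regions, from the first to the third quartile, ran from 2.23 to 2.87 in gd7 and from 2.16 to 2.80 in wild-type. Values of at least 3 were found at 58 gd7 regions (18.8%) and at 76 wild-type regions (13.8%). When the wild-type list was cut to its 1939 strongest regions, the length of the gd7 list, both directions turned: the median was 2.49 in gd7 and 2.67 in wild-type, and values of at least 3 made up 18.8% in gd7 and 20.9% in wild-type. This cut raises the lowest value of the wild-type list alone, which by itself lifts the wild-type median. Among values of at least 2.5 in both lists, the medians were 2.87 in gd7 and 2.83 in wild-type. The highest value was 4.73 in gd7 and 4.31 in wild-type. In wild-type, the highest value of each large arm was above that of X, at 4.53 to 5.07, and the 95th percentile on X was 3.40, against 3.49 to 3.63 on the large arms. In gd7 the maximum on X was within the range of the large arms, 4.28 to 5.06.

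Regions on X were mostly short in both genotypes. Over the full lists the median width was 420 bp in gd7 (385 to 455 bp) and 350 bp in wild-type (350 to 385 bp), and the widths ran from 210 to 3220 bp in gd7 and from 210 to 2870 bp in wild-type. Regions of at least 1000 bp numbered 43 in each list, which is 13.9% of the gd7 regions and 7.79% of the wild-type regions. With the wild-type list cut to its 1939 strongest regions the order of the medians turned, to 420 bp in gd7 and 455 bp in wild-type, and regions of at least 1000 bp were 13.9% in gd7 and 11.3% in wild-type. That cut takes weak regions, which are narrower, from the wild-type list alone. Among values of at least 2.5 in both lists, the median widths were 630 bp in gd7 and 490 bp in wild-type. Among the 226 overlapping pairs the gd7 region was more often the narrower, in 126, than the wider, in 94. The widest gd7 region was X:8107225–8110445, of 3220 bp, which spans 2 separate wild-type regions of 805 and 1470 bp. The next widest gd7 regions were X:6876800–6879950 with 3150 bp and X:19665415–19668530 with 3115 bp. All 5 of the widest gd7 regions overlapped wild-type regions and had the higher value, by 0.19 to 1.17. The widest wild-type region, X:6989465–6992335 with 2870 bp, had nearly the same value in both genotypes, 2.89 in gd7 and 2.89 in wild-type. In wild-type, X:7950460–7953190 formed a single region of 2730 bp, over which gd7 had 3 separate regions.

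The regions were unevenly spaced along X in both genotypes. From the end of a region to the start of the next, the median distance was 12.5 kb in gd7 (7.14 to 21.3 kb) and 12.1 kb in wild-type (8.72 to 14.9 kb), although the gd7 list was much the shorter. Of the gaps in gd7, 120 of 308 (39.0%) were under 5 kb, and in wild-type 193 of 551 (35.03%) were. The longest gap in gd7 ran over 1627 kb, from 20611150 to 22238230, and held 8 wild-type regions, the highest with a value of 3.39. The longest gap in wild-type ran over 769 kb, from 19792220 to 20561520, and held no gd7 region. It lies inside a gd7 gap of 781 kb.

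A gd7 region on X mostly lay on a wild-type region, whereas most wild-type regions had no gd7 region. At least 1 bp was shared with a wild-type region by 218 of 309 gd7 regions, or 70.6% (65.2 to 75.4%), against 62.7% of all gd7 regions. A gd7 region was found at 215 of 552 wild-type regions, or 38.9% (34.97 to 43.1%), against 40.4% of all wild-type regions. On the large arms the shares were 57.1 to 63.5% of gd7 regions and 39.5 to 43.1% of wild-type regions. On chromosome 4 they were 87.5% of 8 gd7 regions (52.9 to 97.8%) and 25% of 28 wild-type regions (12.7 to 43.4%). The share of gd7 regions on X was above the range of the large arms under 4 other rules as well. It was 51.6% (43.8 to 59.4%) against 43.3 to 49.2% among values of at least 2.5. With only the 1939 strongest wild-type regions it was 55.02% (49.4 to 60.5%) against 43.8 to 50.3%. With centres within 200 bp it was 55.3% (49.8 to 60.8%) against 43.6 to 52.2%. Where 50% of the shorter region had to overlap, it was 69.6% (64.2 to 74.4%) against 53.6 to 61.7%. The share of gd7 regions is not separate from the ratio of list lengths. That ratio was low on X, at 0.560 gd7 regions per wild-type region against 0.637 to 0.725 on the large arms. The share of wild-type X regions, by contrast, was below the large arms among values of at least 2.5, at 33.3% against 36.6 to 41.3%, and among the 1939 strongest wild-type regions, at 45.7% against 48.9 to 49.5%. It was within their range with centres within 200 bp, at 31.0% against 29.8 to 34.4%, and with 50% of the shorter region, at 38.6% against 38.4 to 40.5%. The overlaps made up 226 pairs, and the bases common to both lists, 109 kb, were 58.3% of the bases in gd7 regions and 40.0% of those in wild-type regions.

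The stronger the region, the more often it was found in both genotypes. When the gd7 regions of X were split by value into 5 groups of like size, the shares with a wild-type region were 53.2, 61.3, 68.9, 82.3 and 87.1%, weakest to strongest. The groups held 61 or 62 X regions each, and the interval of the lowest group, 41.0 to 65.1%, did not reach that of the highest, 76.6 to 93.3%. For wild-type regions, the X shares with a gd7 region were 18.9, 33.6, 36.4, 43.6 and 62.2% in the same order, with 110 or 111 regions a group. Width rose with value as well. From the lowest to the highest group on X, the median width went from 280 to 945 bp in gd7 and from 280 to 595 bp in wild-type. A wider region more easily shares 1 bp, and the part of width in these shares was not tested. On the large arms, split at the same values, the gd7 shares were 43.3, 49.1, 56.8, 65.1 and 83.0%, each below that of X. The wild-type shares there were 24.95, 28.5, 36.8, 44.0 and 70.1%, so that in wild-type the highest group was shared less often on X, at 62.2% (52.9 to 70.6%), than on the large arms, at 70.1% (66.1 to 73.9%), with intervals that overlap.

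**Figure D2:**
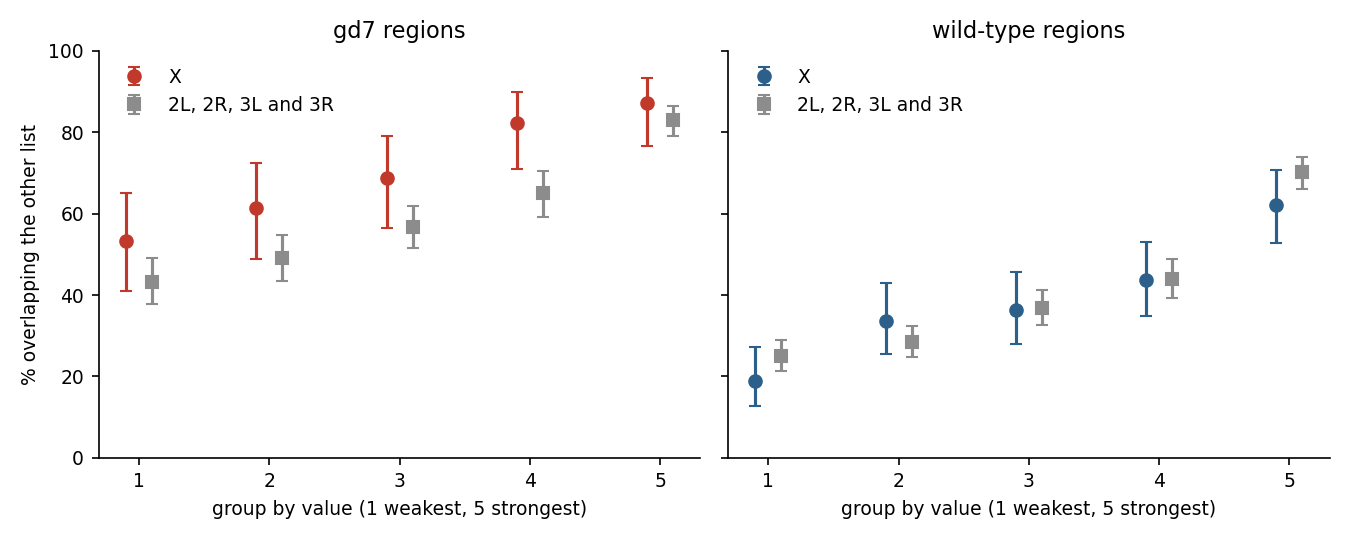
Percentage of regions that overlap a region of the other genotype, by value group from weakest to strongest, for gd7 regions (left) and wild-type regions (right). Coloured circles are X, grey squares the pooled large autosome arms, and bars 95% Wilson intervals. On X the share goes up with the group, to 87.1% in gd7 and 62.2% in wild-type.

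Where both genotypes had a region, the centres mostly lay close together, which the overlap needed for a pair favours. They lay within 200 bp of each other at 168 of the 215 shared wild-type regions, with a median shift of 70 bp, but shifts reached 2223 bp. The widths of the 226 pairs differed by a median of -35 bp, gd7 minus wild-type, and were equal in 6. The heights were only loosely related. Across the 215 shared regions, Pearson's r between gd7 and wild-type values was 0.22 and Spearman's rho was 0.22, as a description, since the regions share the same libraries and only values above each list's limit enter. On the large arms r was 0.23 over 995 regions.

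The difference between the genotypes, gd7 minus wild-type, was centred near 0 over the 215 shared wild-type X regions. The median was 0.02 (-0.09 to 0.12), with 110 regions higher and 105 lower in gd7, and the range ran from -1.51 to 1.87. The sign of the median is not stable, since taking the values as deposited gives -0.03. A difference over 2-fold was found at 33 regions. Of these, 19 were higher in gd7, or 8.84% of the shared regions, against 10.2% of the shared wild-type regions of the whole genome. The other 14 were lower in gd7, or 6.51%, against 5.92% genome-wide. Counted over the shared gd7 regions instead, 15 were higher (6.88%, against 7.98% genome-wide) and 18 lower (8.26%, against 7.24% genome-wide). All these shares lay within those of the single large arms, so X did not stand apart in the share of regions past 2-fold. Just past the limit stood X:18194925–18195345 with a difference of 1.01 and X:2030770–2032800 with -1.002. The nearest regions short of it had 0.92 and -0.98.

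The medians of the regions past the limit are opposed because the difference chose them, and are given as a description. The 19 that were higher in gd7 had a median of 3.81 in gd7 and 2.40 in wild-type, with median widths of 1225 bp in gd7 and 560 bp in wild-type. The gd7 regions X:8107225–8110445 and X:19665415–19668530 each overlap 2 of these 19 and so enter the gd7 medians repeatedly. The 14 that were lower had a median of 2.55 in gd7 and 3.83 in wild-type, with median widths of 332.5 bp in gd7 and 560 bp in wild-type. All 14 belonged to the strongest of the 5 value groups of wild-type regions, where a 2-fold lower value can still be above the limit of the gd7 list. Of the 19, by contrast, 3, 4, 5, 5 and 2 came from the 5 wild-type groups, weakest to strongest. A wild-type region of the weaker groups could not be found 2-fold lower, because its gd7 value would not be listed.

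**Figure D3:**
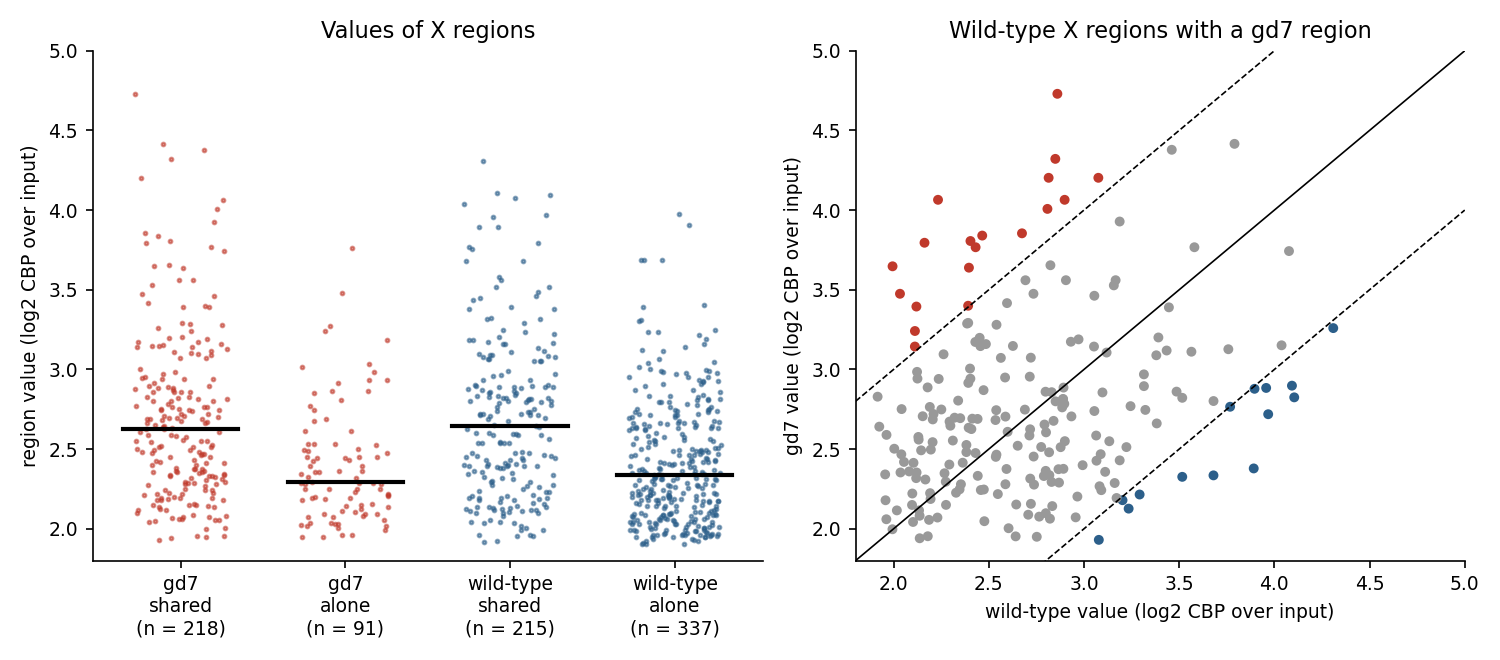
Left, values (log2 CBP over input) of all X regions, in gd7 and wild-type, split by whether they overlap a region of the other list, with a black line at the median. Right, gd7 against wild-type value of the 215 shared wild-type X regions, with the line of equal values and dashed lines at 2-fold. Shared regions reach higher values than regions of 1 list, and 19 points lie above and 14 below the dashed lines.

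The strongest gd7 region on X was X:6890730–6892795, with a value of 4.73 in gd7 and 2.86 in wild-type. The difference of 1.87 was also the largest of any shared region on X. Less than 10 kb away, X:6882050–6883345 had 4.32 in gd7 and 2.85 in wild-type, a difference of 1.47. The second strongest, X:12644380–12646585, had 4.42 in gd7 and was strong in wild-type too, at 3.79. It was followed by X:16226595–16227785, with 4.38 in gd7 and 3.46 in wild-type. The widest gd7 region, X:8107225–8110445, had 4.203 in gd7, and its stronger wild-type partner had 3.08. Further regions among the 10 strongest were X:19665415–19668530 with 4.06 in gd7 and 2.90 in wild-type, and X:4946585–4947565 with 4.01 in gd7 and 2.81 in wild-type. The 10 strongest gd7 regions had values of 3.84 to 4.73 and widths of 525 to 3220 bp, with a median of 1242.5 bp. All 10 overlapped a wild-type region of lower value, by 0.63 to 1.87. They were picked for their height in gd7, which favours this direction.

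The strongest wild-type region on X, X:7954730–7955780, had 3.26 in gd7 and 4.31 in wild-type, a difference of -1.05. It lies next to the wide wild-type region of 2730 bp named above, which had 3.13 in gd7 and 3.76 in wild-type. Next came X:5411070–5411455, with 2.82 in gd7 and 4.10 in wild-type, and X:17683365–17683960, with 2.90 in gd7 and 4.09 in wild-type. The region X:11900875–11901295 was high in both, with 3.74 in gd7 and 4.08 in wild-type, and X:2016700–2018765 had 3.15 in gd7 and 4.04 in wild-type. The 10 strongest wild-type regions had values of 3.90 to 4.31 and a median width of 472.5 bp, below that of the 10 strongest gd7 regions. Of these, 8 had a gd7 region, always of lower value, with differences of -1.28 to -0.33, and 2 had none. As above, the choice by height in wild-type favours this direction.

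Among regions of modest height in wild-type, several were much higher in gd7. X:11216310–11216520, with 3.65 in gd7 and 1.99 in wild-type, was 210 bp wide in wild-type and lay within a gd7 region of 980 bp. X:18693360–18694025 had 3.80 in gd7 and 2.16 in wild-type, and X:18840675–18841235 had 3.81 in gd7 and 2.40 in wild-type. X:8165255–8165605 had 3.84 in gd7 and 2.47 in wild-type. The 10 largest differences on X ran from 1.34 to 1.87, over wild-type values of 1.99 to 2.86. They were picked for the difference, which favours low wild-type values. In 6 of the 10 the centres of the gd7 and wild-type regions lay within 200 bp. In the others the gd7 value came from a peak farther off, up to 2223 bp away.

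At the other end stood strong wild-type regions, with values of 3.08 to 4.10 and a median width of 507.5 bp for the 10 lowest differences. Such low differences need a high wild-type value, because a gd7 value below the limit of its list would not be listed. The lowest difference, -1.51, was at X:2019570–2019955, with 2.38 in gd7 and 3.89 in wild-type. X:16111410–16111935 had 2.34 in gd7 and 3.68 in wild-type, and X:16043090–16043545 had 2.72 in gd7 and 3.97 in wild-type. X:7520800–7521465 had 2.33 in gd7 and 3.52 in wild-type. In 1 case, X:17552640–17553270, the gd7 value was the lowest on X, 1.93, against 3.08 in wild-type. The 10 lowest differences ran from -1.51 to -1.07, and in all 10 the centres of the gd7 and wild-type regions lay at most 105 bp apart.

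Regions listed in 1 genotype alone were weak and narrow in both lists. The 91 gd7 regions without a wild-type region had a median value of 2.29 and the 337 wild-type regions without a gd7 region one of 2.34. The median width was 315 bp in each. They differed in where they lay. Of the gd7 regions without overlap, 53 (58.2%) were within 5 kb of a wild-type region, with a median distance of 2.77 kb. Of the wild-type regions without overlap, 87 (25.8%) were within 5 kb of a gd7 region, with a median distance of 21.5 kb. The wild-type list has more regions to be near to, and on the large arms the shares were alike, at 54.9% in gd7 and 25.5% in wild-type.

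A smaller number of such regions was strong. In gd7 11 of the 91 (12.1%, interval 6.89 to 20.4%) were over 2-fold above the lowest value of the whole wild-type list, against 12.6% genome-wide. In wild-type 34 of the 337 (10.1%, 7.31 to 13.8%) were over 2-fold above the lowest value of the gd7 list, against 9.47% genome-wide. Added to the shared regions past 2-fold, this gives 30 X regions on the gd7 side and 48 on the wild-type side, against 215 and 242 over all arms. X held 15.9% of all gd7 regions and 18.3% of all wild-type regions. The shares behind the sums were each near those genome-wide, so the sums do not set X apart. The sums rest on lists of different length, and the 2 kinds of region have different limits.

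The strongest gd7 region without overlap was X:19679730–19681515, with a value of 3.76 and a width of 1785 bp, and a wild-type region began or ended 0.63 kb from it. The next, X:9360260–9361170 with 3.48, was 28.4 kb from any wild-type region. X:13123530–13124475 with 3.27 and X:2359525–2360540 with 3.24 were 3.67 and 3.36 kb from the nearest. Another 2 of the 10 strongest, X:18804205–18804835 with 3.18 and X:18824995–18825415 with 3.03, lay in the same stretch, 35.8 and 15.3 kb from a wild-type region. The most isolated of the 10 was X:17475675–17475955, with 3.01 at 49.1 kb.

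The 10 strongest wild-type regions without overlap were 315 to 525 bp wide. X:8544900–8545215 had 3.98, and its nearest gd7 region, 2.77 kb away, had 2.35. X:17662120–17662505 had 3.90 and lay 21.1 kb from the nearest gd7 region. X:11580240–11580625, X:5454610–5454995 and X:8518860–8519210 had 3.69 each, at 4.13, 43.3 and 28.8 kb. X:12832155–12832680, with 3.40, lay 185.57 kb from any gd7 region, the farthest of the 10. In the group of 10, 2 had a gd7 region within 5 kb, against 5 of the 10 strongest gd7 regions without overlap that had a wild-type region as near.

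Along X the balance of the genotypes varied. In steps of 1 Mb, 22 of 23 bins held more wild-type than gd7 regions. The exception was 18 to 19 Mb, with 20 gd7 and 17 wild-type regions. Together with the next bin, the stretch from 18 to 20 Mb held 42 gd7 and 45 wild-type regions, and at 20 of its 25 shared regions the gd7 value was the higher, with a median difference of 0.50. It held 7 of the 19 X regions over 2-fold higher in gd7 and 1 of the 14 lower. These counts are of wild-type regions, which are not all separate. X:19665800–19666465 and X:19667235–19668355 took their value from the same gd7 region. X:19659255–19659570 and X:19660200–19660550 also shared a gd7 region, whose centre lay 1610 bp from that of the latter. The stretch from 5 to 6 Mb was the opposite, with 7 gd7 and 33 wild-type regions. Of those wild-type regions, 15.2% had a gd7 region, and all 5 of those were lower in gd7. From 13 to 16 Mb there were 15 gd7 and 54 wild-type regions, of which 16.7% had a gd7 region, and in the bin from 7 to 8 Mb, the fullest in wild-type, there were 18 gd7 and 43 wild-type regions. The bins were picked for their values, so these are descriptions.

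Regions also stood in tight clusters. The fullest windows of 100 kb in gd7 held 12 regions each. In one, X:3667020–3756760, wild-type also had 12 regions, and 5 of 9 shared regions were higher in gd7. In the other, X:6875470–6953240, wild-type had 7 regions, and all 6 shared regions were higher in gd7. The fullest wild-type window, X:10622640–10718085, had 11 gd7 and 17 wild-type regions, with 7 of 10 shared regions higher in gd7 but none past 2-fold. In the second, X:3570665–3671710, with 6 gd7 and 15 wild-type regions, none of the 7 shared regions was higher in gd7. The same was true of the 4 shared regions in X:1935255–2034900, with 7 gd7 and 12 wild-type regions.

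For 3 regions, chosen after the values were seen, all CBP regions within 25 kb to each side were set out together. Around the strongest gd7 region of X there were 8 gd7 and 6 wild-type regions. All 5 shared wild-type regions were higher in gd7, by 0.34 to 1.87, and 3 gd7 regions had no wild-type region. Around the strongest region listed in gd7 alone, X:19679730–19681515, there were 9 gd7 and 7 wild-type regions. All 7 wild-type regions were shared and were higher in gd7, by 0.31 to 1.83, and 4 gd7 regions had no overlap, so that gd7 regions covered 11760 bp and wild-type regions 4270 bp. The 7 differences are not separate, since gd7 regions X:19658695–19661145 and X:19665415–19668530 each overlapped 2 of the wild-type regions. The difference of 1.83, at X:19665800–19666465, was taken to a gd7 centre 1820 bp away. Around the region of the lowest difference, X:2019570–2019955, there were 7 gd7 and 9 wild-type regions, and all 4 shared wild-type regions were lower in gd7, with differences of -1.51 to -0.88. Of these, X:2030770–2032800 had 2.77 in gd7 and 3.77 in wild-type, and X:2034445–2034900 had 2.80 in gd7 and 3.68 in wild-type.

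**Figure D4:**
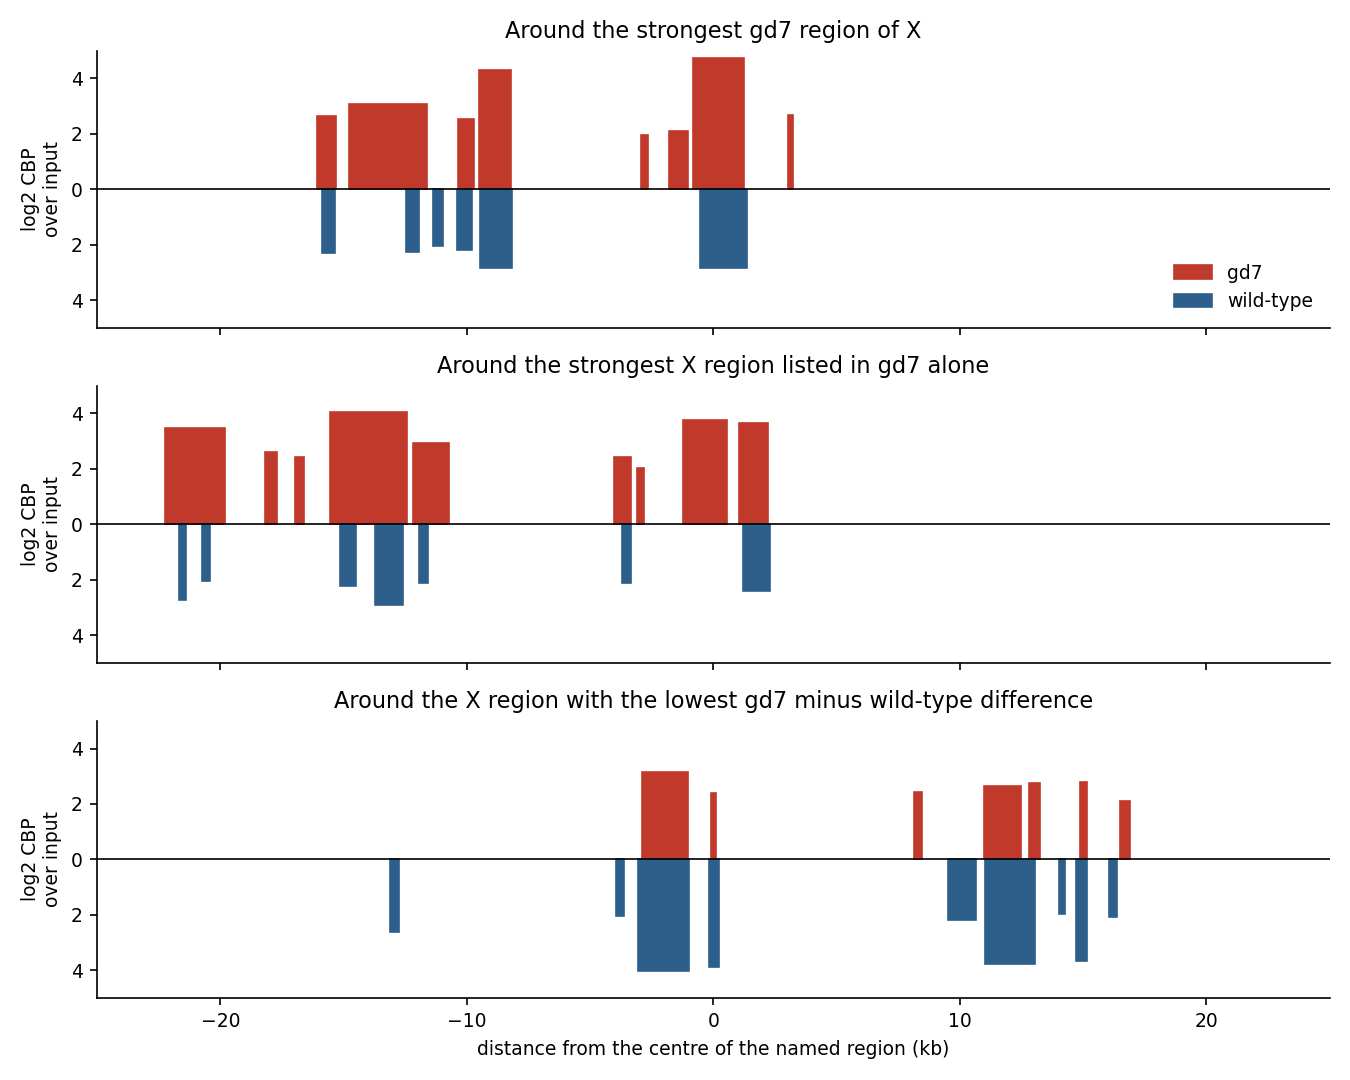
CBP regions within 25 kb of 3 X regions, with gd7 values upward and wild-type values downward (log2 CBP over input) and the distance from the centre of the named region on the horizontal axis. In the upper panels all shared wild-type regions, 5 and 7, are higher in gd7, and in the lowest panel all 4 are lower in gd7. In the middle panel some gd7 regions overlap 2 wild-type regions.

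Other places had fewer regions. Around X:18840675–18841235 there were 4 gd7 regions and 1 wild-type region, with 3 of the gd7 regions unmatched. Around the wild-type region X:4318930–4319420, with 2.88 in gd7 and 3.90 in wild-type, there were 3 gd7 and 4 wild-type regions, and all 3 shared regions were lower in gd7, with differences of -1.11 to -0.69. Not every cluster went one way. Around X:12644380–12646585, 4 of the 5 shared wild-type regions were higher in gd7, and their differences ran from -0.34 to 1.27.

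Neighbouring shared regions on X differed between the genotypes in the same direction more often when they were close. Of pairs of successive shared regions less than 20 kb apart, 67 of 93 (72.0%, interval 62.2 to 80.1%) had differences of the same sign, and Pearson's r between their differences was 0.60. Of pairs farther apart, 69 of 115 (60.0%, 50.9 to 68.5%) did, with r of 0.22, and these intervals overlap. On the pooled large arms, 58.6% (53.7 to 63.4%) of the close pairs had the same sign, with r of 0.22, and the single arms had 57.3 to 62.5%, with r between 0.05 and 0.27. Without the 3 neighbourhoods plotted above, 56 of 82 close pairs on X (68.3%, 57.6 to 77.4%) had the same sign, with r of 0.47. Pairs that shared a gd7 region were left out. Successive pairs share a region and all share the same libraries, so these values are a description, and whether X differs from the other arms was not tested.

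**Figure D5:**
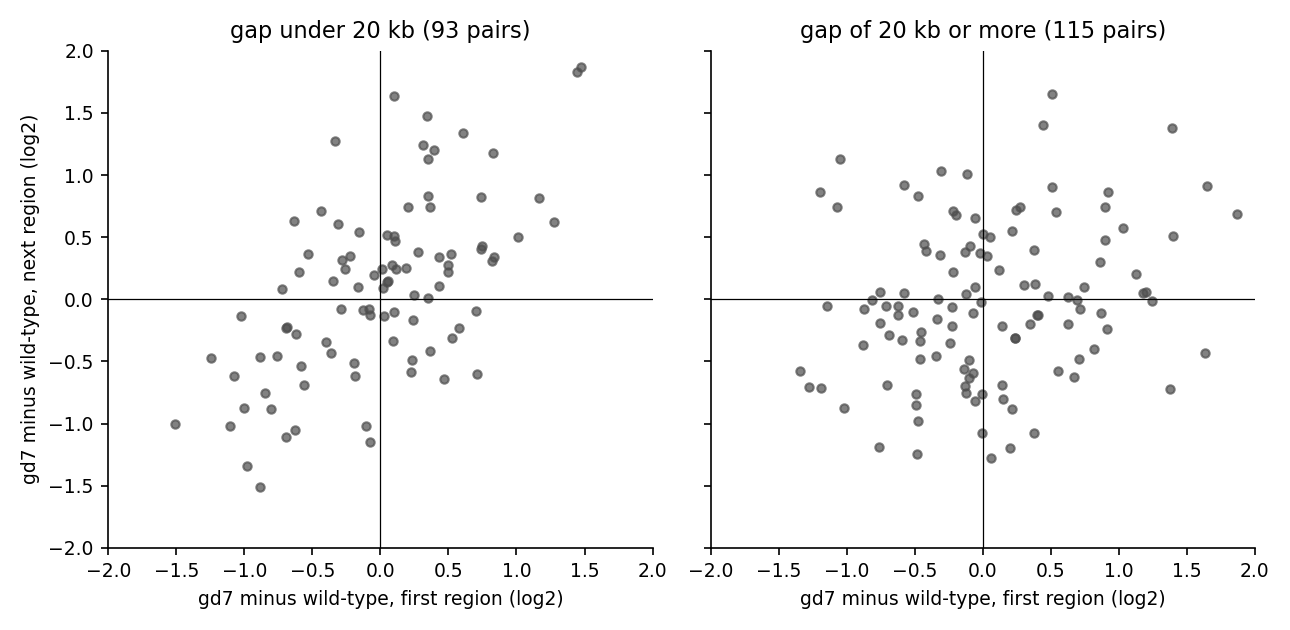
Difference gd7 minus wild-type (log2) of successive shared wild-type regions on X, the next region against the first, for pairs less than 20 kb apart (left, 93 pairs) and farther apart (right, 115 pairs). Points to the lower left and upper right of the zero lines have the same sign, 67 pairs on the left and 69 on the right.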

How the data were processed

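CBP ChIP and input DNA of gd7 and w1118 embryos were sequenced on SOLiD, with 1 library of each kind per genotype. According to the methods, the authors mapped reads to release 5 with Bioscope v1.2.1 and expressed ChIP over input as a log2 ratio where ChIP reached its average, raising input below its average to that average. Ratios were taken every 35 bp and median-smoothed. The highest 5% were joined into regions of at least 200 bp. The deposited log2 value of a region is its mean over the 5 highest consecutive ratios minus a constant. The constants, 1.93 in gd7 and 1.88 in wild-type, were found from 170 gd7 regions, all on 2L, and 1999 wild-type regions of the study's peak table (largest deviation 5e-06) and added back. None of these lies on X, so for X the constants were carried over. The authors did not normalize the genotypes to each other.

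Regions sharing 1 bp or more were counted in Python 3.11.15, numpy 2.4.6 and pandas 2.3.3, checked with bedtools 2.31.1 and tested on simulated regions. A difference is the highest overlapping gd7 value minus the wild-type value. Shares have Wilson intervals and medians binomial intervals (scipy 1.17.1, plots by matplotlib 3.10.9). With 1 library per genotype no test was run. Named regions are the 10 highest values in each list, the 10 largest and lowest differences, the 10 highest values without overlap, the 5 widest regions, the longest gaps and the fullest 100-kb windows. The members and these lists were chosen with earlier results of these data known. Alternatives changed the overlap rule, the value and width minimum, the list length, the direction of comparison, the centring and the class limit.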

Additional observations from a re-analysis of the deposited data

How the results depend on the processing

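No paired analysis was possible because each genotype has 1 CBP library. For the same reason no library could be left out. The shares of X regions with overlap depended on the rule: for gd7 regions 55.3% with centres within 200 bp, 51.6% among values of at least 2.5 in both lists, 55.02% against the 1939 strongest wild-type regions and 85.3% among values over 2-fold above the lowest of the other list, and for wild-type regions 31.0, 33.3, 45.7 and 63.4% in the same order. The last of these rules was chosen after seeing the data. Asking for 50% of the shorter region left both shares close to those given above. The median difference was -0.12 with the 1939 strongest wild-type regions, and it was also below 0 with the values as deposited (-0.03), counted per gd7 region (-0.05), with centres within 200 bp (-0.06) and minus the median of all shared regions (-0.04). Which direction had more regions past 2-fold also turned: 12 were higher and 14 lower with the 1939 strongest wild-type regions, 13 higher and 14 lower with centres within 200 bp, and 15 higher and 18 lower counted per gd7 region. Past 1.5-fold there were 44 higher and 40 lower. Among values of at least 2.5, X had 153 gd7 and 240 wild-type regions, with median values of 2.87 in gd7 and 2.83 in wild-type, median widths of 630 bp in gd7 and 490 bp in wild-type, and median gaps of 33.4 kb in gd7 and 31.3 kb in wild-type. The 1939 strongest wild-type regions had a median value of 2.67, a median width of 455 bp and a median gap of 20.8 kb on X. At equal list length the medians of value and width were thus lower in gd7 than in wild-type. The lists then have unlike lowest values, since only wild-type was cut, and at the common minimum of 2.5 both medians were higher in gd7. Library depth can limit which weak regions reach a list. The paper reports more uniquely mapping reads for gd7 than for wild-type, in both the CBP and the input libraries. It also states that the ratios were adjusted for the depth of ChIP and input. The effect of depth on the lists was not tested here.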
